A study of Mus musculus with 24 samples.

Results

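The genes described are Syt1, Syt2, Snap25, Stx1a, Vamp1, Vamp2, Syn1 and Syn2, which encode proteins that hold synaptic vesicles, dock them and fuse them with the nerve terminal membrane. They were chosen by name, as the transcript clusters (gene level) and probe sets (exon level) that the annotation of the array platform gives 1 of these symbols alone. This gave 7 of the 23332 clusters and 102 of the 229581 probe sets. Every cluster and probe set of the 7 genes was tested, with no filter on low signals. Vamp1 was found only on 1 cluster and 13 probe sets that also carry the symbol E130112N10Rik, and it is named here without values.

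The arrays came from *Usp15*-deficient cerebellum, wild-type cerebellum, *Usp15*-deficient skeletal muscle and wild-type skeletal muscle, with 3 arrays in each group. All mice were C57BL/6 and 1 month old, and the labels name no drug or other treatment. *Usp15* encodes a deubiquitinating enzyme linked to splicing, and the study searched for transcripts altered by its absence. The labels give neither the allele, nor the sex of the mice, nor the name of the muscle. Nor do they name the animal behind an array. The p-values thus rest on the spread among 3 arrays of a group, part of which may be technical. Values are deposited log2 signals, in which a difference of 1 is a doubling of the signal.

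A synaptic vesicle fuses when Vamp2 or Vamp1 on the vesicle winds together with Snap25 and syntaxin 1 on the target membrane to form the SNARE complex. Synaptotagmins 1 and 2 sense the calcium that enters at the terminal and trigger the fusion. Synapsins coat vesicles and hold them in a reserve pool. In the cerebellum, granule cells, Purkinje cells and interneurons all release transmitter in this way. In muscle the same machinery works in motor nerve terminals, whose cell bodies lie in the spinal cord.

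Promoter sequences of Syt1, Syt2, Stx1a, Vamp1, Syn1 and Syn2 were found in RefSeq (build GRCm38.p6), 9 promoters in all. The 250 bases before the annotated start were searched on both strands for TTCAGCACC, the left part of the RE1 element that the neuronal repressor REST binds, for TGACGTCA, the full cAMP response element, and for GGGGCGGGG, a GC box. The Syn1 promoter held the first at bases -232 to -224 and the second at bases -159 to -152 before the start. The other 8 promoters held neither, and none of the 9 held GGGGCGGGG. Only these exact letters were searched, so that other forms of the 3 elements were not counted. Over 32851 promoters of the same length, TTCAGCACC was found in 0.301%, TGACGTCA in 1.55% and GGGGCGGGG in 10.4%. A match describes the letters and says nothing of binding in these tissues. The promoters of Syn1 and Stx1a are shown because these genes had a large and a small difference between the tissues. Syn1 was also the only gene with a match among those searched. No promoter sequence was held for Snap25 and Vamp2. The promoters of Syt1, which differed more between the tissues than Syn1, held none. The Syn1 promoter (chrX:20920919-20921168, minus strand) had 68% G and C, and the Stx1a promoter (chr5:135023232-135023481, plus strand) had 62%. Both read 5′ to 3′, with the matches in capitals.
Syn1: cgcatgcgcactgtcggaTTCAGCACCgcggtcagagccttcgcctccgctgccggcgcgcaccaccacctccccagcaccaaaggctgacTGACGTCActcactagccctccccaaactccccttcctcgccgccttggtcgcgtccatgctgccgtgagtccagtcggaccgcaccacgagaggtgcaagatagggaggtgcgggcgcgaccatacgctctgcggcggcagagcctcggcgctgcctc
Stx1a: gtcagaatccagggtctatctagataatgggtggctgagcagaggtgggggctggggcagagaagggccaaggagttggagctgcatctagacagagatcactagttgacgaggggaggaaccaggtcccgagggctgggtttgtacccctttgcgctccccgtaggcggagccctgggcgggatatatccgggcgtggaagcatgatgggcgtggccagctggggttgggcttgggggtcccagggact

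*Usp15* itself was the check of the labels. Its cluster had log2 signals of 7.08, 6.99 and 7.19 in *Usp15*-deficient and 7.63, 7.51 and 7.66 in wild-type cerebellum, and of 6.73, 6.81 and 6.86 in *Usp15*-deficient and 8.43, 8.92 and 8.65 in wild-type muscle. The genotypes did not overlap in either tissue. At the gene level the differences of -0.52 (SE 0.09, adjusted p = 0.996 from limma) and -1.87 (SE 0.15, adjusted p = 0.273) did not pass the threshold of 0.05. Of its 23 probe sets, 2 passed in each tissue, 4427559 and 4842622. Probe set 4842622 differed by -4.85 (SE 0.26, adjusted p = 0.0126) in cerebellum and by -7.42 (SE 0.27, adjusted p = 0.00178) in muscle. With the replicate number as a block the difference in cerebellum did not pass (adjusted p = 0.489 from limma), nor did 4427559 in either tissue, while 4842622 in muscle still passed (adjusted p = 0.0378). Tissue labels were checked with marker lists. The 6 measured granule neuron, 4 Purkinje cell and 4 inhibitory interneuron markers were higher in cerebellum, and the 5 measured muscle fibre markers were lower, all past the threshold in both genotypes. No marker passed it for genotype in either tissue. In muscle the median genotype difference was 0.71 for 3 Schwann cell markers, 0.46 for 1 red blood cell marker and 0.34 for 5 neuromuscular junction markers. Those of the other lists ran from -0.05 for endothelium to 0.15 for astrocytes. For the Schwann cell and junction lists the array medians of the genotypes did not overlap. The part of these differences in the values of the 7 genes was not tested.

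The cerebellum and muscle arrays do not share a centre on the deposited scale. Medians of single arrays at the gene level were 6.09 to 6.17 for cerebellum, against 5.41 to 5.51 for muscle. The median cluster was higher in cerebellum by 0.62 in both genotypes, and the median probe set by 0.48 in *Usp15*-deficient and 0.47 in wild-type arrays. Tissue differences and fold values are given on the deposited scale, with this shift left in, unless stated. In whole tissue, fewer cells of a type and less RNA per cell cannot be told apart. No detection call was used, so how far a low signal lay above background is not known in either tissue.

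At the gene level all 7 genes were higher in cerebellum than in muscle in both genotypes. Over all clusters 57.0% were called higher in cerebellum in *Usp15*-deficient and 54.6% in wild-type arrays, so that a call alone says little about these genes. Their differences were larger than most. In *Usp15*-deficient arrays the 7 differences had a median of 4.33, and in wild-type arrays of 4.27, beside 0.62 over all clusters. Relative to that shift of all clusters they ran from 0.11 for Stx1a to 7.05 for Snap25 in *Usp15*-deficient arrays. In wild-type arrays they ran from 0.13 to 7.17 for the same genes.

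**Figure D1:**
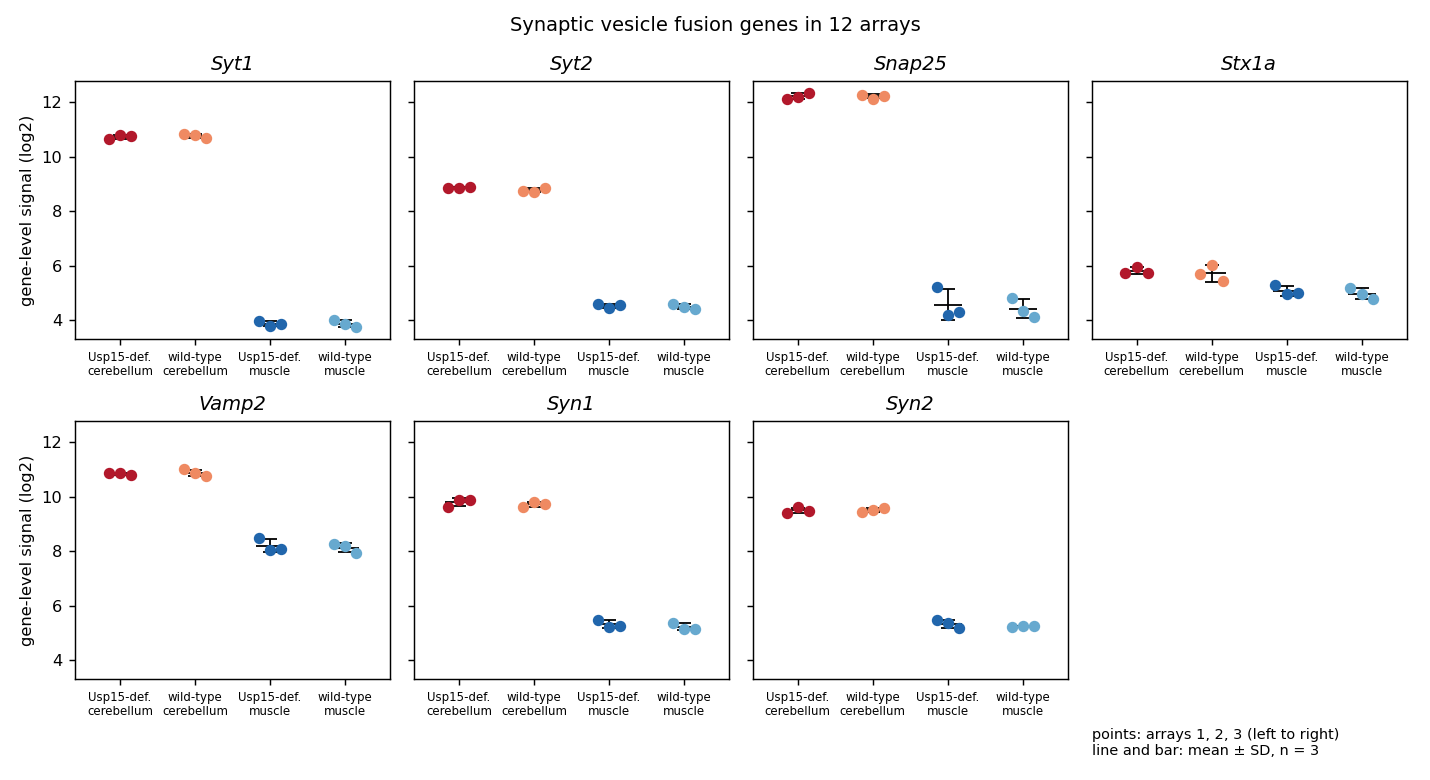
Gene-level log2 signal of 7 synaptic vesicle fusion genes in each of the 12 arrays, by group. Points are arrays, and lines with bars are means ± SD of 3. The cerebellum groups lie above the muscle groups for every gene, widely for Snap25 and Syt1 and narrowly for Stx1a.

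Syt1 encodes the main calcium sensor of fast release in forebrain neurons. It had 10.64, 10.79 and 10.76 in *Usp15*-deficient cerebellum, 10.81, 10.80 and 10.68 in wild-type cerebellum, 3.97, 3.77 and 3.86 in *Usp15*-deficient muscle and 4.02, 3.86 and 3.74 in wild-type muscle. The tissues were far apart and the genotypes overlapped in each. Cerebellum was above muscle by 6.86 (SE 0.11, adjusted p = 4.7e-07 from limma) in *Usp15*-deficient arrays and by 6.89 (SE 0.12, adjusted p = 4.2e-07) in wild-type arrays, which is a 119-fold signal in wild type. Syt2 encodes the faster sensor of many brainstem and cerebellar inhibitory terminals and of the neuromuscular junction. Its signals were 8.84, 8.86 and 8.87 in *Usp15*-deficient cerebellum, 8.74, 8.70 and 8.84 in wild-type cerebellum, 4.59, 4.46 and 4.55 in *Usp15*-deficient muscle and 4.58, 4.49 and 4.42 in wild-type muscle. Here the 3 *Usp15*-deficient cerebellum arrays were all above the 3 wild-type ones, by a narrow margin. The tissue difference was 4.33 (SE 0.09) in *Usp15*-deficient and 4.26 (SE 0.11) in wild-type arrays, with adjusted p-values of 7.7e-07 and 7.9e-07 from limma.

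Among the target membrane SNAREs, Snap25 and Stx1a stood at the ends of the range. Snap25, the partner that botulinum toxin A cuts, had 12.13, 12.21 and 12.34 in *Usp15*-deficient cerebellum, 12.28, 12.13 and 12.22 in wild-type cerebellum, 5.21, 4.18 and 4.29 in *Usp15*-deficient muscle and 4.81, 4.34 and 4.12 in wild-type muscle. It varied more in muscle than in cerebellum, with an SD of 0.57 in *Usp15*-deficient and 0.35 in wild-type muscle, against 0.11 and 0.07 in the cerebellum of the same genotypes. Array 1 was the highest in both muscle groups. The tissue difference was 7.67 (SE 0.28) in *Usp15*-deficient and 7.79 (SE 0.19) in wild-type arrays, with adjusted p-values of 3.8e-06 and 6.7e-07 from limma. This was the largest of the 7, a 221-fold signal in wild type. Stx1a encodes syntaxin 1A, a syntaxin of the neuronal plasma membrane. It had 5.74, 5.96 and 5.73 in *Usp15*-deficient cerebellum, 5.70, 6.03 and 5.43 in wild-type cerebellum, 5.29, 4.96 and 4.995 in *Usp15*-deficient muscle and 5.17, 4.97 and 4.77 in wild-type muscle. The tissues did not overlap within either genotype, but the gap was small. Stx1a was below the median signal of every array, 6.09 to 6.17 in cerebellum and 5.41 to 5.51 in muscle. Cerebellum was above muscle by 0.73 (SE 0.14, adjusted p = 0.00355 from limma) in *Usp15*-deficient and by 0.75 (SE 0.19, adjusted p = 0.0127) in wild-type arrays. Against the shift of the median cluster this left 0.11 in *Usp15*-deficient and 0.13 in wild-type arrays. With quantile normalization the differences were -0.0036 in *Usp15*-deficient and -0.0047 in wild-type arrays. With arrays centred on their medians they were 0.06 in *Usp15*-deficient and 0.08 in wild-type arrays, and Stx1a passed the threshold on neither scale. The other 6 genes passed under both.

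Vamp2, which tetanus toxin cuts, is the main vesicle SNARE of the brain. It had 10.85, 10.85 and 10.79 in *Usp15*-deficient cerebellum, 11.003, 10.85 and 10.77 in wild-type cerebellum, 8.49, 8.03 and 8.10 in *Usp15*-deficient muscle and 8.25, 8.20 and 7.94 in wild-type muscle. Genotypes overlapped and tissues did not. The tissue difference was 2.63 (SE 0.14) in *Usp15*-deficient and 2.74 (SE 0.14) in wild-type arrays, with adjusted p-values of 2.3e-05 and 1.1e-05 from limma. Vamp2 is known outside neurons as well, in insulin-stimulated transport of glucose carriers in muscle and fat.

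The synapsins differed between the tissues by similar amounts. Syn1, on the X chromosome, had 9.62, 9.89 and 9.88 in *Usp15*-deficient cerebellum, 9.64, 9.80 and 9.72 in wild-type cerebellum, 5.49, 5.21 and 5.26 in *Usp15*-deficient muscle and 5.36, 5.15 and 5.15 in wild-type muscle. Syn2 had 9.42, 9.60 and 9.49 in *Usp15*-deficient cerebellum, 9.43, 9.497 and 9.59 in wild-type cerebellum, 5.46, 5.37 and 5.17 in *Usp15*-deficient muscle and 5.21, 5.25 and 5.25 in wild-type muscle. For both genes the genotypes overlapped in each tissue. The tissue difference of Syn1 was 4.48 (SE 0.13) in *Usp15*-deficient and 4.50 (SE 0.12) in wild-type arrays. That of Syn2 was 4.17 (SE 0.12) in *Usp15*-deficient and 4.27 (SE 0.11) in wild-type arrays. Adjusted p-values from limma were 1.9e-06 for Syn1 and 1.6e-06 for Syn2 in *Usp15*-deficient arrays and 8.4e-07 and 7.1e-07 in wild-type arrays. The 95% intervals of Syn1, Syt2 and Syn2 overlapped in wild-type arrays, where they ran from 4.21 to 4.78, from 3.997 to 4.53 and from 4.01 to 4.52.

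None of the 7 genes passed the threshold for genotype. In cerebellum the differences, *Usp15*-deficient minus wild-type, ran from -0.04 for Vamp2 to 0.10 for Syt2, with adjusted p-values from limma between 0.996 and 0.9997. Over all clusters 0.0% passed in cerebellum and 3.54% had an unadjusted p under 0.05, against 0 of the 7 genes at either limit. In muscle they ran from -0.01 for Syt1 to 0.14 for Snap25, with an adjusted p of 0.9999 for each. There 0.0% of all clusters passed and 3.09% had an unadjusted p under 0.05, and again 0 of the 7 genes did either. The groups of 3 did not overlap for 1 of the 7 genes in cerebellum, Syt2, where 8.9% of all clusters did not overlap. In muscle 0 of 7 were apart, beside 6.36% of all clusters.

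What the data allow is set by the confidence intervals. For Syt2 in cerebellum the difference was 0.10 (95% interval from -0.09 to 0.29). Over the 7 genes the intervals reached from -0.33 to 0.51 in cerebellum, both bounds set by Stx1a. In muscle they reached from -0.63 to 0.91, both set by Snap25. The Snap25 difference of 0.14 in muscle was -0.19 without *Usp15*-deficient array 1.

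**Figure D2:**
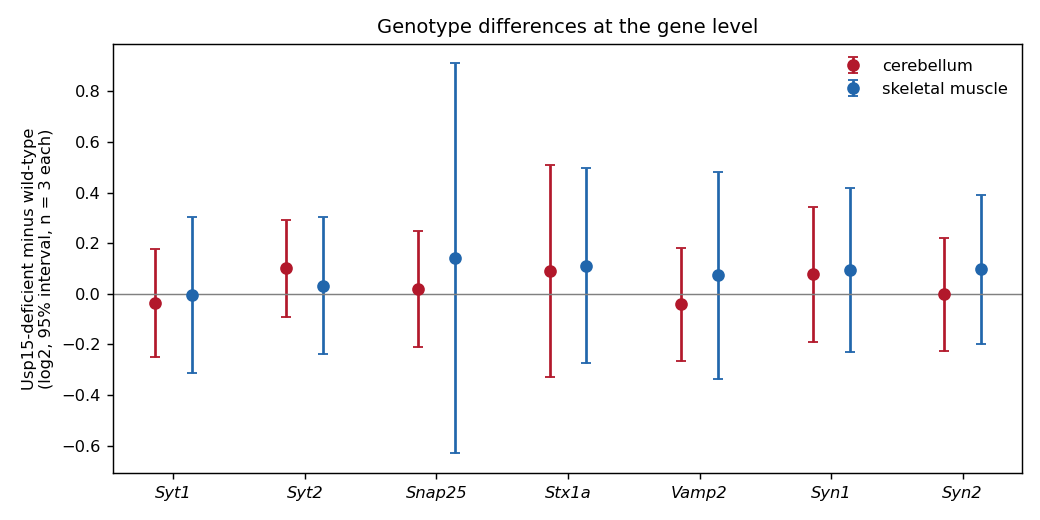
Difference in gene-level log2 signal, *Usp15*-deficient minus wild-type, for 7 genes in cerebellum and in skeletal muscle. Points are fitted differences and bars 95% confidence intervals from limma (n = 3 each). Every interval includes 0, and the widest is that of Snap25 in muscle.

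The genotype difference was also compared between the tissues as an interaction over all 12 arrays. The 7 values, cerebellum minus muscle, ran from -0.12 for Snap25 to 0.07 for Syt2, with an adjusted p from limma of 0.9999 for each. No gene passed the threshold or had an unadjusted p under 0.05, and over all clusters 0.0% passed and 2.91% had such a p. Of the 102 probe sets 0 passed and 1 had an unadjusted p under 0.05, beside 0.0% and 3.11% of all probe sets.

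At the exon level 0 of 102 probe sets passed for genotype in cerebellum and 0 of 102 in muscle. Over all probe sets 2 passed in each tissue, which is 0.000871%, and both were probe sets of *Usp15*, 4427559 and 4842622. An unadjusted p under 0.05 was reached by 1 of 102 in cerebellum, where 3.49% of all probe sets reached it, and by 5 of 102 in muscle, where the share was 3.18%. The one in cerebellum was Stx1a 5248953, at -0.52 (SE 0.20). The 5 in muscle were Snap25 4906471 at 1.42 (SE 0.59) and 4 of Syn1, of which 5093187, 4478869 and 5205493 were at 0.84, 0.95 and 0.88 and 5150087 at -0.90. They were named after their values were seen, and all had adjusted p-values above 0.99 from limma. The groups did not overlap for 7 of 102 probe sets in cerebellum, with 8.24% over all, and for 5 of 102 in muscle, with 6.75% over all. Relative to their gene, 0 of 102 probe sets passed for genotype in either tissue with limma, beside 0.00117% of the probe sets tested in each. That share was again the same 2 probe sets of *Usp15*. An unadjusted p under 0.05 was reached by 0 of 102 in cerebellum and 8 of 102 in muscle, beside 3.48% and 3.75% of the probe sets tested.

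Between the tissues, 91 of 102 probe sets were higher and 2 lower in the cerebellum of *Usp15*-deficient mice, and 92 were higher and 2 lower in that of wild-type mice. Over all probe sets 39.1% were called higher and 13.4% lower in *Usp15*-deficient arrays, and 35.4% higher and 13.2% lower in wild-type arrays. All 15 probe sets of Syt1, all 13 of Snap25 and all 9 of Vamp2 were higher in both genotypes. Of the 12 probe sets of Syt2, 11 were higher in both. Syn1 had 20 of 22 higher in each genotype, and Syn2 had 18 of 20 in *Usp15*-deficient and 20 of 20 in wild-type arrays. Stx1a had 5 of 11 higher in *Usp15*-deficient and 4 of 11 in wild-type arrays, and 2 of 11 lower in both. With quantile normalization 85 of the 102 were higher in either genotype, and 3 in *Usp15*-deficient and 2 in wild-type arrays were lower.

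**Figure D3:**
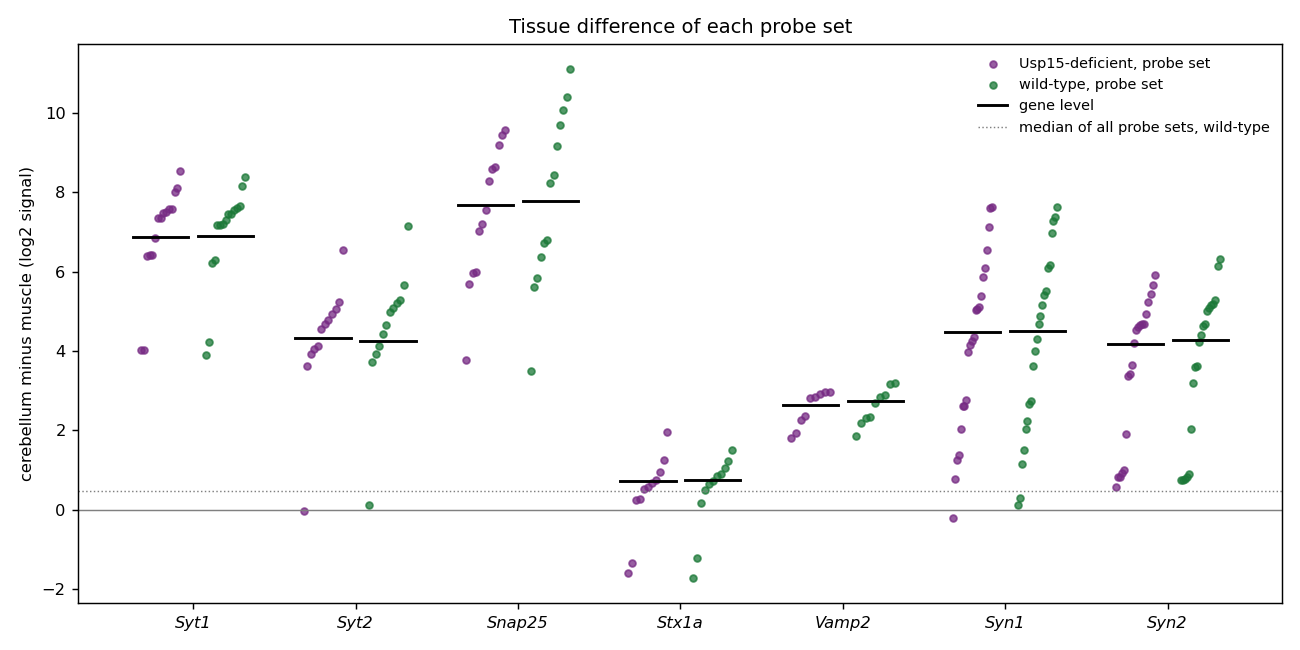
Cerebellum minus muscle difference in log2 signal of each of the 102 probe sets, by gene, in *Usp15*-deficient (left of each pair) and wild-type arrays. Black lines are the gene-level differences, and the dotted line is the median of all probe sets in wild type, 0.47. Vamp2 probe sets lie close together. Those of Syn1 spread from -0.20 in *Usp15*-deficient and 0.11 in wild-type arrays, below the dotted line, to above 7.

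Several genes held probe sets that differed much less between the tissues than the gene did. The difference of each probe set was therefore tested relative to the gene-level value of the same array. In both genotypes and with the same sign, 40 of the 102 probe sets passed, 15 with a larger and 25 with a smaller tissue difference than their gene, where 11.2% of the probe sets tested passed. That share is over all genes, most of which differed less between the tissues than most of these 7. It is thus not a background of genes with a like tissue difference. With each array left out in turn, 34 to 40 of these 40 still passed. The counts, larger and smaller, were 2 and 2 for Syt1, 1 and 1 for Syt2, 4 and 5 for Snap25, 0 and 2 for Stx1a, 0 and 1 for Vamp2, 6 and 8 for Syn1, and 2 and 6 for Syn2. The platform annotation used here gives no position for a probe set, so that none can be placed in an exon.

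For Stx1a the 2 probe sets ran against the gene. Probe set 4477803 had 7.15, 6.69 and 6.85 in *Usp15*-deficient cerebellum, 7.60, 7.16 and 6.37 in wild-type cerebellum, 8.995, 8.30 and 8.19 in *Usp15*-deficient muscle and 8.95, 8.59 and 8.73 in wild-type muscle. Probe set 5278107 had 7.08, 6.90 and 6.83 in *Usp15*-deficient cerebellum, 7.08, 7.39 and 6.73 in wild-type cerebellum, 8.41, 8.25 and 8.18 in *Usp15*-deficient muscle and 8.63, 8.21 and 8.04 in wild-type muscle. Both were lower in cerebellum on every array. Their tissue differences were -1.60 and -1.34 in *Usp15*-deficient and -1.71 and -1.23 in wild-type arrays, with adjusted p-values from limma between 0.000675 and 0.00571. The highest Stx1a difference in wild type was that of 4536909, with 5.25, 5.37 and 5.73 in *Usp15*-deficient cerebellum, 5.04, 5.37 and 4.93 in wild-type cerebellum, 4.81, 3.88 and 3.95 in *Usp15*-deficient muscle and 3.96, 3.20 and 3.65 in wild-type muscle. Probe sets 4732266, 5248953 and 5442995 did not pass in either genotype, with differences between 0.18 and 0.89. The count of higher Stx1a probe sets was 0 and 1 of 11 with quantile normalization in *Usp15*-deficient and wild-type arrays, while 2 stayed lower in both.

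**Figure D4:**
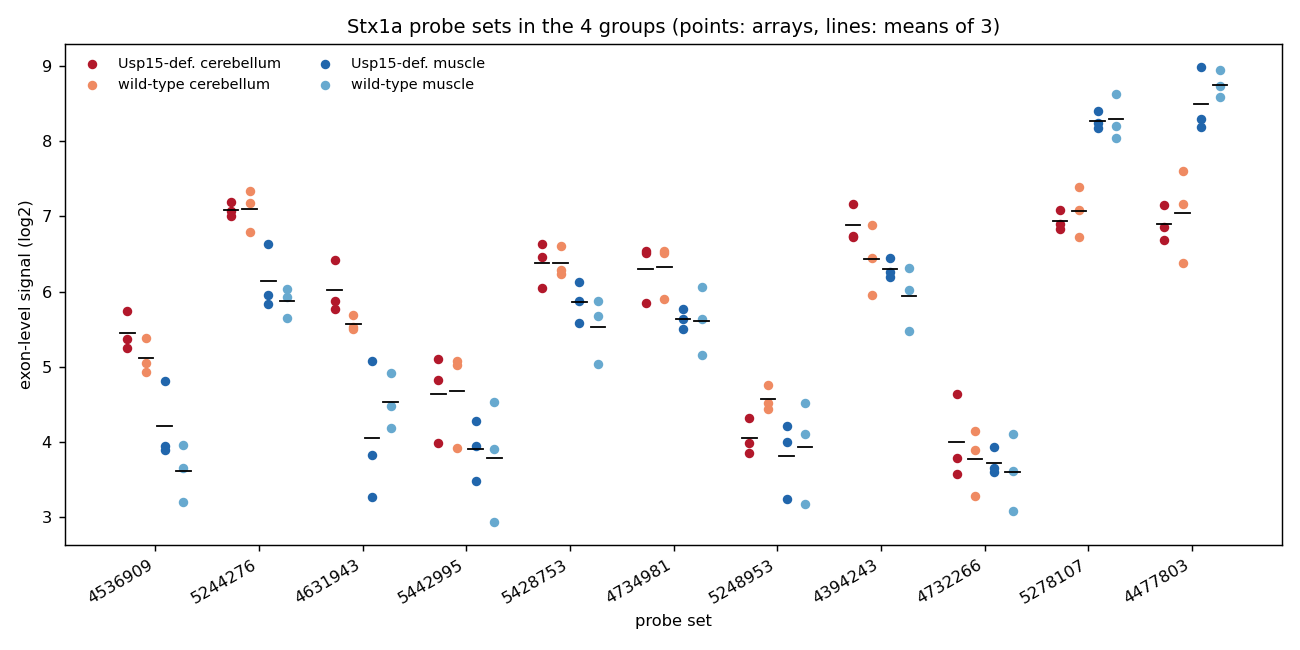
Exon-level log2 signal of the 11 Stx1a probe sets on each array, in the 4 groups, ordered by their wild-type tissue difference. Points are arrays and lines means of 3. The last 2 probe sets, 5278107 and 4477803, are lower in cerebellum than in muscle in both genotypes.

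Syn1 held probe sets at both ends of a wide span. Probe set 5351532 had 9.41, 9.75 and 9.89 in *Usp15*-deficient cerebellum, 9.42, 9.87 and 9.73 in wild-type cerebellum, 2.01, 2.68 and 3.02 in *Usp15*-deficient muscle and 2.56, 2.19 and 1.39 in wild-type muscle. Probe set 4705714 had 7.31, 7.10 and 7.31 in *Usp15*-deficient cerebellum, 7.30, 7.34 and 8.04 in wild-type cerebellum, 7.58, 7.32 and 7.43 in *Usp15*-deficient muscle and 7.50, 7.57 and 7.28 in wild-type muscle. The first was far apart between the tissues, and the second overlapped in wild type. Their tissue differences were 7.11 and -0.20 in *Usp15*-deficient and 7.62 and 0.11 in wild-type arrays. Relative to the gene, 4705714 stood at -4.68 in *Usp15*-deficient and -4.39 in wild-type arrays, and 5351532 at 2.63 in *Usp15*-deficient and 3.13 in wild-type arrays, all past the threshold. Probe sets 5548272 and 5354090 were larger too, by 3.15 and 3.13 in *Usp15*-deficient and by 2.88 and 2.77 in wild-type arrays. Probe sets 5150087 and 5073493 were smaller, at -3.70 and -3.23 in *Usp15*-deficient and -4.20 and -3.34 in wild-type arrays. The annotated span of Syn1 holds Timp1, which encodes a protease inhibitor, and overlaps Araf, which encodes a kinase. Whether a Syn1 probe set also measures these is not given, and their part in the spread was not tested.

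Syn2 held a group of probe sets with a small tissue difference. The smallest in wild type was that of 4321117, with 7.18, 8.01 and 7.93 in *Usp15*-deficient cerebellum, 7.87, 7.83 and 7.58 in wild-type cerebellum, 6.91, 7.41 and 6.04 in *Usp15*-deficient muscle and 7.28, 6.69 and 7.09 in wild-type muscle. This gave 0.92 (adjusted p = 0.078 from limma) in *Usp15*-deficient and 0.74 (adjusted p = 0.031) in wild-type arrays. Probe set 4658394 differed by 0.58 in *Usp15*-deficient and by 0.75 in wild-type arrays, while 4678452 differed by 0.99 in *Usp15*-deficient and 0.76 in wild-type arrays. The largest difference was that of 5381328, 5.92 in *Usp15*-deficient and 6.31 in wild-type arrays. It exceeded the gene by 1.75 in *Usp15*-deficient and 2.05 in wild-type arrays, and 5336592 did so by 1.27 in *Usp15*-deficient and 1.86 in wild-type arrays. Timp4 lies within the annotated span of Syn2, and its part was likewise not tested.

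Among the other genes, Snap25 4906471 reached the largest difference of all 102 probe sets. It had 12.38, 12.54 and 12.86 in *Usp15*-deficient cerebellum, 12.76, 12.60 and 12.76 in wild-type cerebellum, 4.41, 2.48 and 2.22 in *Usp15*-deficient muscle and 2.24, 1.11 and 1.497 in wild-type muscle. This gave 9.56 in *Usp15*-deficient and 11.09 in wild-type arrays, larger than the gene by 1.89 in *Usp15*-deficient (adjusted p = 0.0082 from limma) and 3.31 in wild-type arrays (adjusted p = 0.0003). Array 1 of *Usp15*-deficient muscle stood above the other 5 muscle arrays. Snap25 4561199 and 5563765 also exceeded the gene, by 1.78 and 1.53 in *Usp15*-deficient and by 2.28 and 1.89 in wild-type arrays. Snap25 5052032 was at the other end, with 3.76 in *Usp15*-deficient and 3.51 in wild-type arrays, and 5339893 and 4720888 lay between 5.61 and 5.98.

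For Syt1 the span was from 3.90 to 8.37 in wild-type arrays. Probe set 5349702 had 9.25, 9.38 and 9.64 in *Usp15*-deficient cerebellum, 9.33, 9.17 and 9.09 in wild-type cerebellum, 1.44, 0.44 and 0.83 in *Usp15*-deficient muscle and 0.79, 0.79 and 0.88 in wild-type muscle. It exceeded the gene by 1.66 in *Usp15*-deficient and 1.48 in wild-type arrays, and 5064802 did so by 1.23 in *Usp15*-deficient and 1.26 in wild-type arrays. Probe sets 5603994 and 4711934 fell short of it, at -2.85 each in *Usp15*-deficient and at -2.99 and -2.68 in wild-type arrays. The annotated span of Syt1 holds the protein-coding gene Gm5136 and overlaps a long noncoding RNA gene, Gm36601. That of Snap25 overlaps another such RNA gene, Gm32659. The part of these genes in the spread was not tested.

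Syt2 had 1 probe set, 5331440, with almost the same signal in all groups. It read 7.73, 7.67 and 7.65 in *Usp15*-deficient cerebellum, 7.78, 7.76 and 7.90 in wild-type cerebellum, 7.78, 7.66 and 7.69 in *Usp15*-deficient muscle and 7.78, 7.71 and 7.61 in wild-type muscle. Its tissue differences were -0.02 in *Usp15*-deficient (adjusted p = 0.910 from limma) and 0.11 in wild-type arrays (adjusted p = 0.663), below the shift of the median probe set. Syt2 4353516 was at the upper end, with 6.55 in *Usp15*-deficient and 7.15 in wild-type arrays. The probe sets of Vamp2 spread least in wild type, from 1.85 for 4376891 to 3.18 for 4441550. Probe set 4376891 fell short of the gene, at -0.81 in *Usp15*-deficient and -0.89 in wild-type arrays.

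The muscle arrays numbered 1 had the highest signals of their groups for most of these genes, a pattern seen in the data and not sought beforehand. At the gene level array 1 was the highest of 3 for 7 of 7 genes in *Usp15*-deficient and 6 of 7 in wild-type muscle, Syn2 in wild type being the exception. It was the highest in both genotypes for 6 of 7 genes, against 12.9% of all clusters. At the exon level it was so for 42 of 102 probe sets, against 12.3% of all. In cerebellum the same was true of 0 of 7 genes and 11 of 102 probe sets, beside 12.3% of clusters and 13.0% of probe sets. The muscle arrays numbered 1 had the lowest array medians of their groups, 5.43 in *Usp15*-deficient and 5.41 in wild-type muscle. In muscle the medians of the 5 measured axon markers, in the order of arrays 1 to 3, were 5.01, 4.71 and 5.04 in *Usp15*-deficient and 5.02, 4.97 and 4.74 in wild-type samples. The medians of 6 granule neuron markers were 5.01, 4.73 and 4.85 in *Usp15*-deficient and 4.84, 4.63 and 4.46 in wild-type muscle, against 10.4 to 10.8 in cerebellum. The medians of 3 Schwann cell markers were 6.05, 6.46 and 6.02 in *Usp15*-deficient and 5.91, 6.00 and 5.68 in wild-type muscle. Array 1 was also the highest in both genotypes for the medians of the muscle fibre, Purkinje cell, inhibitory interneuron and oligodendrocyte markers. Those of muscle fibres were 13.26, 13.24 and 13.14 in *Usp15*-deficient and 13.28, 13.25 and 13.18 in wild-type muscle. Array 1 was not the highest in both for the astrocyte, microglia, neuromuscular junction, endothelium and red blood cell lists. The part of these markers in the pattern was not tested.

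**Figure D5:**
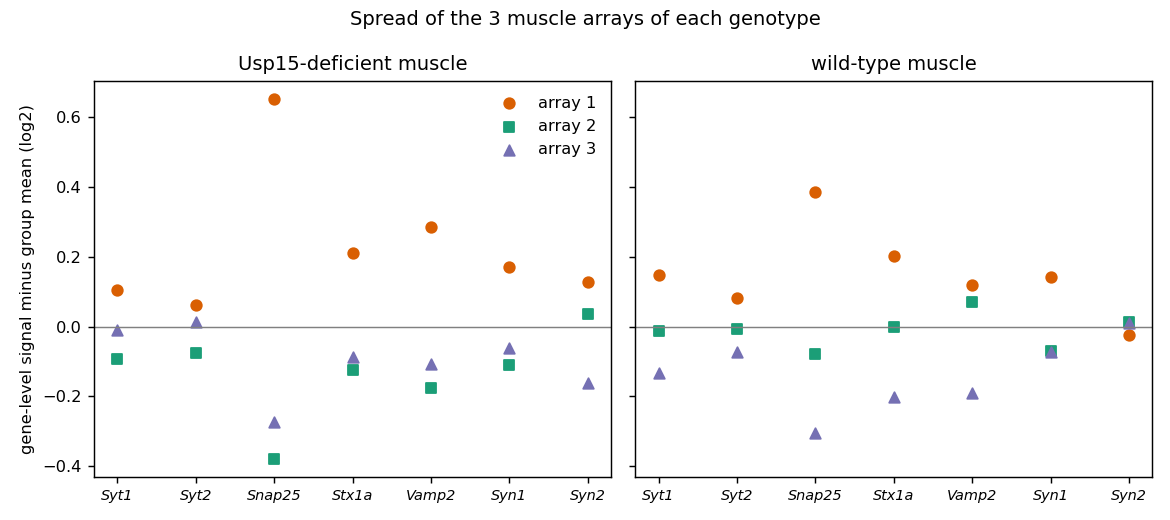
Gene-level log2 signal of each muscle array minus the mean of its group of 3, for 7 genes, in *Usp15*-deficient and wild-type muscle. Array 1 lies above 0 for every gene but Syn2 in wild type, and farthest for Snap25.

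The wider fusion machinery was described with a list of 60 further genes, of which 52 were measured under a single symbol. With limma 0 of 52 passed the threshold for genotype in either tissue or for the interaction, and 3 in cerebellum, 0 in muscle and 0 for the interaction had an unadjusted p under 0.05, beside 3.54%, 3.09% and 2.91% of all clusters. Between the tissues, 42 of the 52 were higher in the cerebellum of each genotype, beside 57.0% of all clusters in *Usp15*-deficient and 54.6% in wild-type arrays, and 5 were lower in *Usp15*-deficient and 6 in wild-type arrays. Their median difference was 2.60 in *Usp15*-deficient and 2.67 in wild-type arrays, beside 0.62 over all clusters. With arrays centred on their medians 39 were higher and 9 lower in *Usp15*-deficient arrays, and 38 were higher and 10 lower in wild-type arrays.

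All 11 measured calcium sensors were higher in cerebellum, with a median of 3.09 in *Usp15*-deficient and 3.06 in wild-type arrays. Syt4 and Syt7 differed by 4.62 and 3.53 in wild-type arrays, and Syt6 and Doc2a, a sensor linked to spontaneous release, by 1.27 and 1.06. In wild-type arrays the last 2 did not pass with quantile normalization, nor Doc2a with centred arrays. Of the 15 measured priming factors and SNARE regulators, 14 were higher. They included Stxbp5l, a relative of tomosyn, at 6.77 in *Usp15*-deficient and 6.76 in wild-type arrays and Unc13c, which encodes the Munc13 of granule cells, at 5.66 in *Usp15*-deficient and 5.86 in wild-type arrays. Unc13b was at 0.77 in *Usp15*-deficient and 0.63 in wild-type arrays, near the shift of the median cluster, and did not pass with either other scale. Napa, which encodes alpha-SNAP of the SNARE recycling step, was at -0.18 in both and did not pass, but was called lower in both, at -0.85 each, with arrays centred on their medians.

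The SNAREs of general membrane traffic did not move as one. Of 5 further target membrane SNAREs, Snap47 was higher in cerebellum, by 1.61 in *Usp15*-deficient and 1.39 in wild-type arrays. Snap23, the relative of Snap25 that is found in most tissues, was lower, at -1.54 in *Usp15*-deficient and -1.70 in wild-type arrays. Snap29 at -0.27 in *Usp15*-deficient and Stx2 at -0.39 in wild-type arrays passed the threshold in 1 genotype, and the interaction passed for neither. Stx4a, a surface syntaxin of muscle and fat, was at 0.28 in *Usp15*-deficient and 0.13 in wild-type arrays and did not pass. On the other scales it was below 0, at -0.39 in *Usp15*-deficient and -0.54 in wild-type arrays with arrays centred on their medians, and was called lower in both genotypes there and in wild type with quantile normalization. Of 5 further vesicle SNAREs, Vamp5, known from muscle, was lower in cerebellum, at -2.35 in *Usp15*-deficient and -2.59 in wild-type arrays, and so was Vamp8, at -0.71 in *Usp15*-deficient and -0.70 in wild-type arrays. Vamp3 was lower in wild-type arrays, at -0.43, and was at -0.29 in *Usp15*-deficient arrays, where it did not pass. Vamp4 was higher by 0.78 in *Usp15*-deficient and 0.60 in wild-type arrays, but not with arrays centred on their medians, nor in wild type with quantile normalization. Vamp7 did not pass, at 0.31 in *Usp15*-deficient and 0.04 in wild-type arrays, but was called lower in wild type, at -0.64, with centred arrays.

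Of 16 vesicle proteins and transporters, 15 were higher in cerebellum and 1 lower. Sv2b and Syp, which encode the vesicle proteins SV2B and synaptophysin, differed by 6.19 and 5.28 in *Usp15*-deficient and by 6.29 and 5.37 in wild-type arrays. Rab3d, a Rab of secretory cells, was at 0.45 in *Usp15*-deficient and 0.59 in wild-type arrays, and did not pass on the other 2 scales. Syngr2, the synaptogyrin found mostly outside neurons, was lower in cerebellum, at -3.44 in *Usp15*-deficient and -3.36 in wild-type arrays.

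The median profile of the 7 genes, each centred on its mean over the 12 arrays, was set against 14853 other clusters with 1 symbol. The closest by root mean square distance over 12 arrays were Slc6a15 at 0.078, Myt1l at 0.078, Dync1i1 at 0.094, Rph3a at 0.095 and Cntn4 at 0.099 log2 units. These clusters differed between the tissues by 4.22 to 4.47. By Pearson correlation the 5 closest were Ryr2, Nrxn3, Snap91, Nell2 and Pcnx2, and none was shared with the first list. A correlation over 0.99 was found for 1216 of the 14853 clusters. The 12 points fall into 2 tissues, so that these likenesses describe a shared tissue difference.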

How the data were processed

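Each RNA sample was run on an Affymetrix mouse exon array, and the authors deposited log2 signals for each of the 12 arrays at the gene level and at the exon level. Their normalization is, like the background correction, software and genome build, not given in the sources used here, and no further step was applied. All tests were two-sided limma fits (lmFit, eBayes) on the 6 arrays of a tissue or of a genotype, with Benjamini-Hochberg adjustment over all features of a level and a threshold of 0.05 (limma 3.58.1, R 4.3.3). The interaction used all 12 arrays. A probe set within its gene was taken as the probe set minus its gene on each array, over 171159 probe sets, after leaving out 488 that equal their cluster. An exact permutation test of 3 against 3 cannot give a p below 0.1 and was not used. The fits were tested on simulated data.

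The genes and lists were chosen with earlier results of these data known. Probe sets named were, per gene, the largest and the smallest wild-type tissue difference and up to 3 in each direction past the within-gene test in both genotypes. List genes named were the 2 highest and 2 lowest of each role, and the 5 clusters closest in profile. Snap29, Vamp3 and the probe sets of unadjusted p under 0.05 were added after their values were seen. Alternatives were quantile normalization, arrays centred on their medians (chosen after seeing the data), a trended and robust prior (statmod 1.5.0), leaving out the dimmest 25 percent, a fit of all 12 arrays, the methods' t-test, the replicate number as a block, the median of the probe sets as the reference, and leaving out each array. Counts that moved by less than 1.5 times were treated as equal. Where neither setting passed the threshold, a change of sign smaller than the standard error did not count as a reversal. Symbols come from the platform annotation (14996 clusters and 209279 probe sets with 1 symbol). For cerebellum arrays of both genotypes that share a number, deviations from the group means correlated at 0.218, 0.203 and 0.103 at the gene level. For muscle arrays the values were 0.305, 0.064 and 0.160. Each cerebellum array was closest to its own number, and so were muscle arrays 1 and 3, but not 2. Between the tissues, arrays that share a number correlated at 0.049, -0.036 and 0.014 in *Usp15*-deficient and at 0.101, -0.065 and 0.075 in wild-type mice. There only the arrays numbered 1 were closest to their own number. The numbers may thus pair arrays of the genotypes within a tissue, which the main fits did not use and the replicate block did.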

Additional observations from a re-analysis of the deposited data

How the results depend on the processing

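None of the 7 genes or their 102 probe sets passed the threshold for genotype or interaction under any alternative run (in muscle the filter on dim clusters left 6 of the 7 genes), and 6 of the 7 genes were higher in cerebellum under all of them. Stx1a was the exception: its tissue differences of 0.73 and 0.75 in *Usp15*-deficient and wild-type arrays became -0.0036 and -0.0047 with quantile normalization and did not pass with arrays centred on their medians. The scale also set the background. Of the clusters called, 81.5% were higher in the cerebellum of *Usp15*-deficient mice as deposited, 47.5% with quantile normalization and 42.5% with centred arrays, and 80.7%, 46.7% and 41.4% in wild type. For probe sets the shares were 74.4%, 47.7% and 44.6% in *Usp15*-deficient and 72.8%, 47.4% and 44.5% in wild-type arrays. With quantile normalization and with centred arrays the wild-type tissue difference turned to -0.20 and -0.40 for Syn1 4705714, to -0.17 and -0.21 for Syn1 5150087 and to -0.16 and -0.40 for Syt2 5331440, and that of *Usp15* in *Usp15*-deficient arrays to -0.16 and -0.38. Snap25 in muscle, at 0.14 for genotype, ranged from -0.19 to 0.33 as each array was left out. Of the 40 member probe sets past the within-gene test in both genotypes (15 larger, 25 smaller), 28 passed with the methods' t-test (5 and 23), 35 with the median of the probe sets as reference, and 37 with the replicate block.

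With the replicate number as a block no call of the 7 genes changed at the gene level. Under the replicate block the calls over all probe sets in cerebellum went to 0, against 2 without it, and so did those within genes in either tissue. In muscle 1 probe set was called, against 2.

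Over all features other counts moved as well, and the cause was not tested. Genotype calls at the exon level were 0 in cerebellum and 0 in muscle with the methods' t-test, and in muscle 11 with the trended prior, 4 without the dimmest probe sets and 21 with all 12 arrays, which gave 2 clusters. Within genes they were 0 in both tissues with the t-test, and 0 in cerebellum with the median of the probe sets as reference. The interaction called 1 probe set without the dimmest ones. Tissue calls within genes were 21205 in *Usp15*-deficient and 14065 in wild-type arrays with the t-test, against 34724 and 27332. With each array left out, calls ranged from 0 to 3 clusters and from 2 to 28 probe sets for genotype in muscle, from 0 to 0 probe sets in cerebellum, from 0 to 6 clusters and 0 to 32 probe sets for the interaction, and within genes from 0 to 0 in cerebellum, 0 to 2 in muscle, 20890 to 30447 between the tissues in *Usp15*-deficient and 15806 to 22806 in wild-type arrays. The counts of 3, 6, 28 and 32 came without wild-type muscle array 3. Signal over background is not given in the values used.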
